A study of Mus musculus with 8 samples.

Results

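Expression of 6 genes of the Slc9 family, Slc9a2, Slc9a3, Slc9a5, Slc9a7, Slc9a8 and Slc9a9, was examined in mouse molars with and without Wdr72. They were chosen by name from the deposited read-count table, in which they are 6 of 54532 genes, and each had 1 row. Slc9 proteins exchange sodium (or potassium) ions for protons across a membrane. Some work at the cell surface, where they keep the cytosol from turning acid and move sodium and bicarbonate across epithelia, and others set the pH inside the Golgi apparatus and endosomes. In enamel, the growth of apatite crystals releases protons, and the enamel-forming epithelium, the ameloblasts, is known to move bicarbonate and protons during maturation to buffer them.

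The series set wdr72-/- mice (KO, libraries 1, 3, 4 and 5), from a colony of the UC Davis Mouse Biology Center, against wild type mice (WT, libraries 2, 3, 4 and 5), all labelled C57BL/6. WDR72 is a WD40-repeat protein of vesicle traffic whose loss causes a defect of enamel maturation. First molars were taken at postnatal day 12 by the age label, or day 13 by the dissection protocol, the pulp was taken out, the rest of the tooth was homogenised, and its polyA RNA was sequenced. The labels call the samples enamel organ cells and ameloblasts, and say neither which part of Wdr72 was removed, nor whether a library holds 1 pup or several, so p-values measure the spread between these libraries, which may be technical.

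The libraries held 17084475 to 21887462 reads. Wdr72 itself had 102, 37.8, 24.9 and 15.8 CPM (reads scaled to a common library size) in KO 1, 3, 4 and 5, against 173, 245, 327 and 228 CPM in WT 2, 3, 4 and 5, a log2 fold change of -2.43 (SE 0.47, adjusted p = 0.0803 in edgeR's quasi-likelihood test). Each KO library was below each WT library, and KO 1 kept the most Wdr72 reads. KO 5 stood apart, with a mean correlation of 0.965 with the other libraries against 0.980 to 0.983 for the rest. All 10 ameloblast markers had reads, with a sum of 60010 to 81380 CPM in KO and 53720 to 98140 CPM in WT. Markers of other cells were present too, those of odontoblasts and bone at a sum of 33040 to 58950 CPM in KO and 28860 to 56050 CPM in WT. Much of that sum was Col1a1, with a mean of 29910 CPM in KO and 20860 CPM in WT. In RNA of whole tissue, fewer cells of a type and less RNA per cell cannot be told apart. Over all genes, 5 of 16205 passed an adjusted p of 0.05 in edgeR (0.0309%), 2 of them higher in KO (0.0123%).

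All 6 genes carry the codons for asparagine and aspartate next to each other in a membrane segment, a pair that is conserved in the electroneutral sodium-proton exchangers and takes part in ion binding. The coding stretch around that pair is shown because it is what the family shares, and because it shows how far the members' sequences differ, on which the assignment of reads to 1 of them depends. It was found by searching the longest coding sequence of each gene in GENCODE M21 (build GRCm38) for leucine, asparagine, aspartate and then alanine or glycine, which occurred once in each. Capitals mark the codons of the pair.
Slc9a2: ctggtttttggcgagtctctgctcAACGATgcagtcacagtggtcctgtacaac
Slc9a3: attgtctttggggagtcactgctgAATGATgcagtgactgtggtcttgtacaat
Slc9a5: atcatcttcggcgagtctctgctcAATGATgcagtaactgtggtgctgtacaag
Slc9a7: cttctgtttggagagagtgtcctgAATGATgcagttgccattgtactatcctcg
Slc9a8: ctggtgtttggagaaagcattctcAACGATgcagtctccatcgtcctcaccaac
Slc9a9: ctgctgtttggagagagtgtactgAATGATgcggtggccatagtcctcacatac

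Each 54-base stretch spans an intron, and the place of that intron splits the genes into 2 classes. In Slc9a2, Slc9a3 and Slc9a5, whose proteins work at the cell surface (Slc9a3 and Slc9a5 also in recycling endosomes), the exon ended 12 bases after the capitals. In Slc9a7, Slc9a8 and Slc9a9, whose proteins sit mainly in Golgi and endosomal membranes, it ended 23 bases after them. On GRCm38 the stretch runs over exons 2 and 3 of Slc9a2 (chr1:40719017-40726219, plus strand), exons 3 and 4 of Slc9a3 (chr13:74155208-74156996, plus) and exons 3 and 4 of Slc9a5 (chr8:105355266-105355482, plus). In the organelle class it runs over exons 6 and 7 of Slc9a7 (chrX:20165071-20166060, minus), exons 8 and 9 of Slc9a8 (chr2:167451298-167457327, plus) and exons 6 and 7 of Slc9a9 (chr9:94855744-94936310, plus). Over whole coding sequences, aligned bases of the 15 pairs of these genes were 61.9% to 68.9% identical, and the longest run shared exactly by any pair of their transcripts was 20 bases. Slc9a2 and Slc9a4 shared an exact run of 38 bases. No exon of the 6 overlapped an exon of another gene in that annotation.

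The family was led by genes of the organelle class, and every pair of genes but Slc9a2 and Slc9a7 stood in the same order in 8 of 8 libraries. Levels between genes are compared in TPM, reads divided by the deposited gene length and scaled to the library's sum of such values. Over the 8 libraries the mean level was 8.99 TPM for Slc9a8, 4.17 TPM for Slc9a9, 2.80 TPM for Slc9a5, 0.778 TPM for Slc9a2, 0.717 TPM for Slc9a7 and 0.107 TPM for Slc9a3. Slc9a8 was above Slc9a9 in 8 of 8 libraries and their ranges did not meet. Slc9a9 was also above Slc9a5 in 8 of 8 libraries, although their ranges met. Slc9a2 and Slc9a7 did not differ beyond their spread, with Slc9a2 the higher in 5 of 8 libraries, and Slc9a5 was above Slc9a2, and Slc9a7 above Slc9a3, in 8 of 8 with ranges that did not meet. All 15 pairs kept this order when length was left out. The 6 genes together made up 14.0 to 20.5 TPM in KO and 12.8 to 20.7 TPM in WT. Of that sum Slc9a8 took 43.3% to 51.9% in KO and 47.6% to 61.1% in WT, while Slc9a2 took 4.61% to 7.57% in KO and 2.55% to 3.39% in WT.

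**Figure D1:**
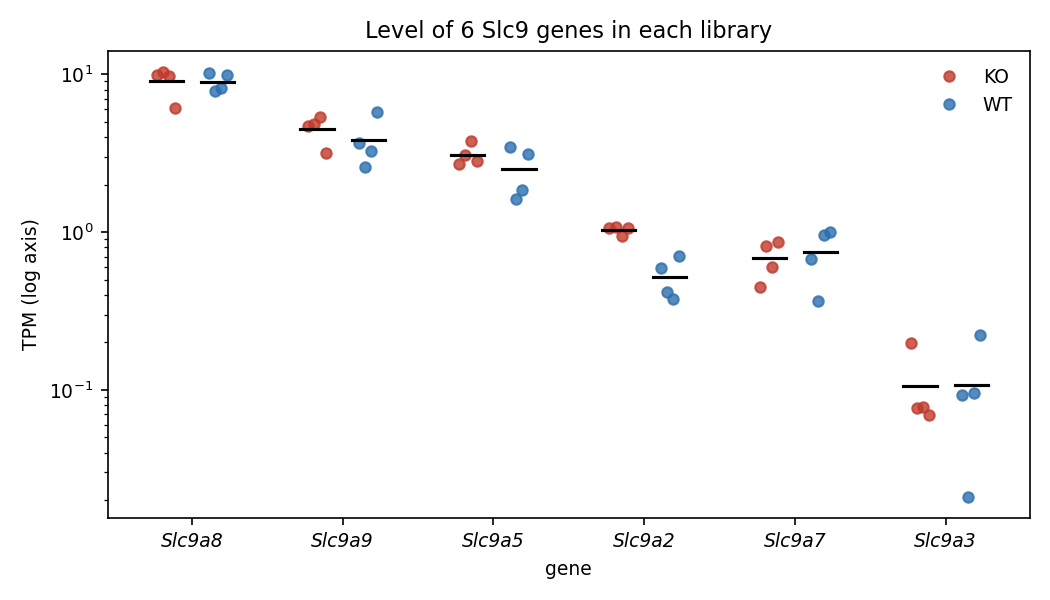
Level of each gene in TPM (log axis) in the 4 KO libraries (red, left) and the 4 WT libraries (blue, right), with a bar at each group's mean. Slc9a8 lies highest and Slc9a3 lowest, and only Slc9a2 has KO points that all lie above its WT points.

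Slc9a2 was the gene of the 6 with the clearest difference, about 2.02-fold higher in KO, and the 95% intervals of the other 4 tested genes included 0. Of the 6, 5 had enough reads to be tested, and 0 passed an adjusted p of 0.05 in edgeR. At an unadjusted p of 0.05 there was 1 of 5, Slc9a2, beside 15.7% of all genes tested (8.7% higher and 6.98% lower in KO). Slc9a2 was also the 1 of 5 whose KO and WT libraries did not overlap, beside 10.9% of all genes (5.5% higher and 5.44% lower in KO). By log2 fold change 3 were higher and 2 lower in KO, with a median of 0.24 against 0.02 over all genes tested. Slc9a2 alone of the 5 passed an adjusted p of 0.05 in DESeq2, which called 2.86% of all genes (1.83% higher in KO), and in limma voom, which called 6.57% (4.29% higher in KO).

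Slc9a2 encodes NHE2, an exchanger of the epithelial cell surface known best from the stomach and intestine. It lies on chromosome 1 from 40680574 to 40769273 (GRCm38, ENSMUSG00000026062). KO 1, 3, 4 and 5 had 48, 53, 46 and 58 reads, or 2.63, 2.43, 2.12 and 3.02 CPM, against 24, 25, 20 and 28 reads, or 1.33, 1.19, 0.949 and 1.58 CPM, in WT 2, 3, 4 and 5. The lowest KO library was above the highest WT library, KO 5 being the highest of all and WT 4 the lowest. Its mean was 2.55 ± 0.38 CPM in KO and 1.26 ± 0.26 CPM in WT (SD, n = 4 each), a log2 fold change of 1.01 (SE 0.25, 95% interval 0.48 to 1.55), or 2.02-fold. In edgeR's quasi-likelihood test the adjusted p was 0.116, with 206 the rank of the gene by p among 16205. A log2 fold change of 1 or more in KO was found for 0.759% of all genes, and 65 genes showed both a change at least as large as that of Slc9a2 and no overlap between KO and WT. The difference is larger than the spread between libraries, but it did not pass the threshold after adjustment in edgeR.

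The reads behind it were few. Summed over each group there were 205 reads in KO (exact 95% Poisson interval 178 to 235) and 97 in WT (78.7 to 118), intervals that cover counting error only. The intervals of the single libraries met in part, as in 35.4 to 63.6 reads for KO 1 and 18.6 to 40.5 reads for WT 5. Slc9a2 stayed higher in KO when any 1 library was left out, with log2 fold changes of 0.89 (without WT 4) to 1.14 (without WT 5) and adjusted p values of 0.0912 to 0.367 in edgeR. Without KO 1 and KO 5 together, the library with the most remaining Wdr72 and the one that stood apart, its log2 fold change was 0.85 (adjusted p = 0.301 in edgeR). In DESeq2 the adjusted p was 0.0179 and in limma voom it was 0.0254. The whole range of its adjusted p over 18 alternatives was 0.0179 to 0.951. The highest came with the level of Xist, the RNA of the inactive X chromosome, as a covariate. There the log2 fold change was 1.13 (SE 0.42, unadjusted p = 0.0211 in edgeR). Slc9a5, Slc9a7 and Slc9a9 had the same adjusted p in that fit. Xist averaged 243 ± 81.3 CPM in KO and 638 ± 269 CPM in WT (SD, n = 4 each), a log2 fold change of -1.39. Because Xist itself differed between the groups, that fit separates its level from genotype only in part.

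**Figure D2:**
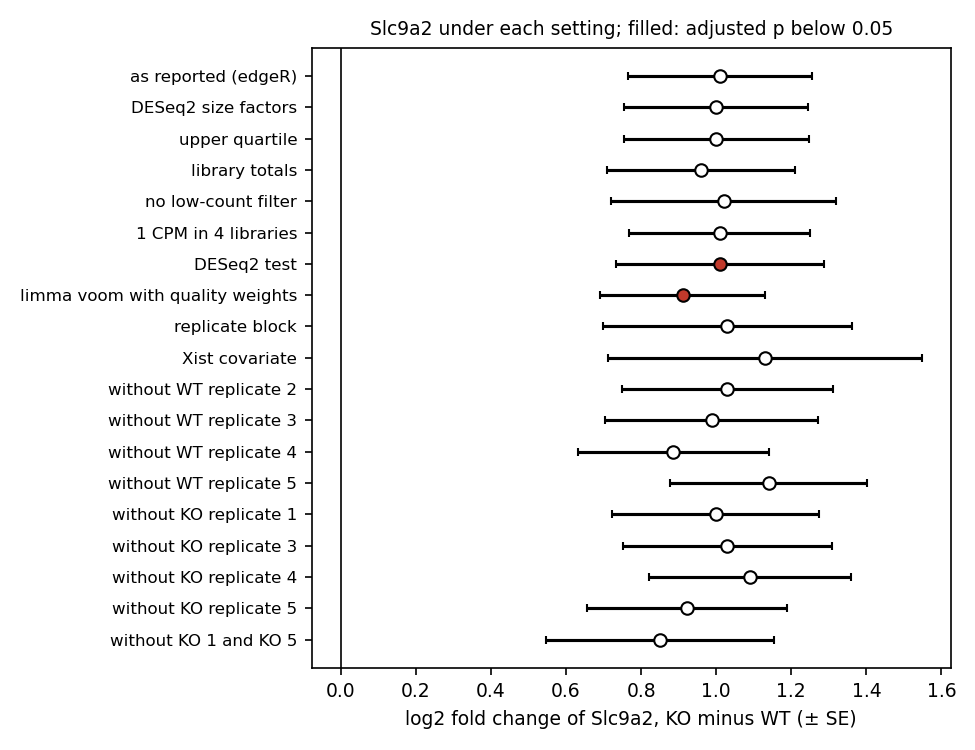
Log2 fold change of Slc9a2 (KO minus WT, bars ± SE) as reported and under 18 other settings. All values lie between 0.85 and 1.14, and the adjusted p was below 0.05 (filled) with DESeq2 and limma voom.

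Slc9a4, the surface exchanger next to Slc9a2 on chromosome 1, ends 49.9 kb before it starts and was close to silent, with 2 reads in KO and 1 in WT. Gm37623, which lies within the body of Slc9a2 on the other strand, had 0 reads. The genes whose profile over the 8 libraries lay nearest to that of Slc9a2 were Col6a2, Cpxm1, Col6a1, Col26a1 and Tspan11. Nearness was the root-mean-square difference of log2 CPM after each gene was centred on its own mean. The search covered 12567 protein-coding genes with a mean of at least 2 CPM, a floor that Slc9a2 itself, at 1.91 CPM, did not reach. The difference was 0.132 for Col6a2 and 0.156 for Tspan11, against a spread of 0.529 for Slc9a2 itself. Col6a1 and Col6a2 encode chains of collagen VI, a connective tissue collagen. Col26a1 encodes another collagen, and Col6a1 also stands on the list of mesenchyme markers. Col6a2 was at 203 ± 39.2 CPM in KO and 109 ± 14.8 CPM in WT. All but Col6a1 were highest in KO 5, as Slc9a2 was, and Col6a1 was highest in KO 1. These genes were picked by likeness to Slc9a2 over the same libraries, so a shared highest library follows in part from the choice. The closeness is a description of 8 libraries that share the genotype contrast.

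**Figure D3:**
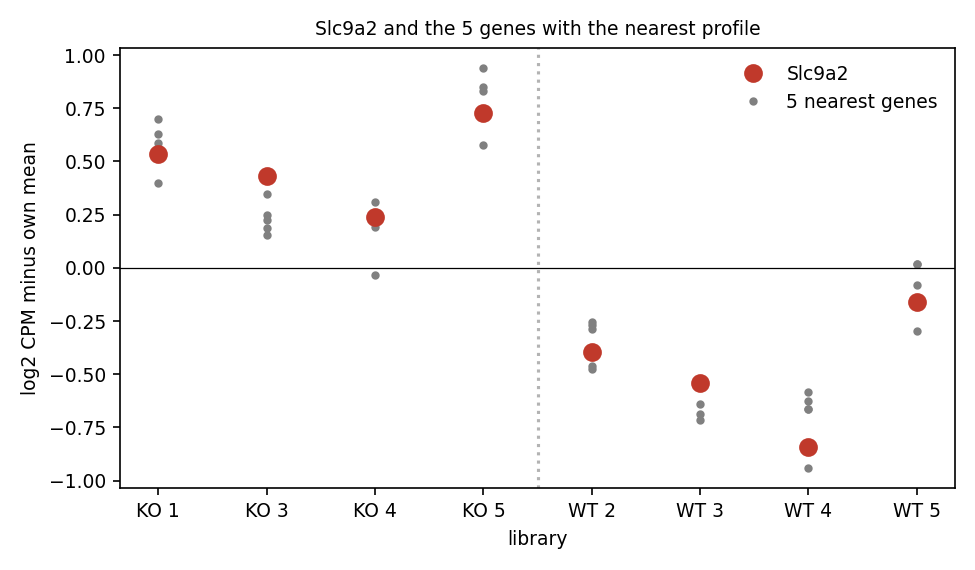
Log2 CPM minus each gene's own mean in the 4 KO libraries (left) and the 4 WT libraries (right) for Slc9a2 (red) and its 5 nearest genes (grey). Slc9a2 is highest in KO 5 (0.73) and lowest in WT 4 (-0.84), and among WT libraries WT 5 is highest (-0.16).

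Marker genes of the cells the tissue could hold were summed per library, with no test of the sums. The counts called in each list stand beside these shares over all genes tested. In edgeR 0.0309% passed after adjustment, and 8.7% were higher and 6.98% lower in KO at an unadjusted p of 0.05. DESeq2 called 2.86% (1.83% higher in KO) and limma voom 6.57% (4.29% higher in KO). Of 7 mesenchyme markers 7 were higher in KO, with a summed level of 4708 to 6906 CPM in KO and 3038 to 4913 CPM in WT and a median log2 fold change of 0.53. By edgeR 0 of them passed after adjustment (5 at an unadjusted p of 0.05), and 5 passed in DESeq2 and in limma voom. This sum was highest in KO 5, at 6906 CPM, among KO libraries and in WT 5, at 4913 CPM, among WT libraries, as Slc9a2 was, but it was lowest in KO 3 and Slc9a2 in KO 4 among KO libraries. KO 5 was the highest KO library for 8 of the 10 marker lists, ameloblast and keratinocyte markers included, the exceptions being odontoblast and bone and endothelial markers. Of 10 tested oral keratinocyte markers 10 were lower in KO (2 after adjustment in edgeR, 7 in DESeq2 and 8 in limma voom), with summed levels of 542 to 805 CPM in KO and 674 to 1294 CPM in WT. Ameloblast markers were split, with 5 of 10 higher and a median of -0.02. By edgeR 0 of them passed after adjustment, and Odaph, an enamel maturation gene, was called higher in DESeq2 and in limma voom (log2 fold change 1.04, adjusted p = 0.0803 in edgeR). Odontoblast and bone markers went both ways by log2 fold change, with a median of 0.47. In KO 4 of 6 were higher (Bglap2, Bglap, Ibsp and Col1a1) and the other 2 lower. After adjustment 0 of these 6 passed in edgeR (3 higher at an unadjusted p of 0.05). DESeq2 called 2 of them higher and limma voom 4. Stratum intermedium and papillary layer markers summed to 11140 to 18220 CPM in KO and 11920 to 14420 CPM in WT, macrophage and leukocyte markers to 136 to 180 CPM in KO and 117 to 125 CPM in WT, and endothelial markers to 262 to 320 CPM in KO and 255 to 275 CPM in WT. Of 7 tested stratum intermedium and papillary layer markers 3 were higher and 4 lower by log2 fold change. At an unadjusted p of 0.05 in edgeR 1 was higher (Alpl) and 3 were lower (Slc2a1, Thbd and Jag1). After adjustment 0 passed in edgeR and in DESeq2, and Slc2a1 was called lower in limma voom. Of the macrophage and leukocyte markers 5 of 6 were higher by log2 fold change and 1 was lower (Ptprc, -0.39, SE 0.20). In edgeR 0 of these 6 passed after adjustment (3 higher at an unadjusted p of 0.05), and 2 were called higher in DESeq2 and in limma voom. The sums of KO and WT overlapped for the mesenchyme, keratinocyte, ameloblast, odontoblast and bone, stratum intermedium, endothelial, erythroid and osteoclast lists. They did not overlap for the macrophage list or for the nerve and Schwann list (106 to 146 CPM in KO and 72.6 to 99.8 CPM in WT). Erythroid markers summed to 1465 to 4593 CPM in KO and 723 to 1963 CPM in WT. No marker on these lists was at 0 reads in all 8 libraries. The part of such shifts in the Slc9a2 difference was not tested.

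Slc9a5 encodes NHE5, a surface and recycling endosome exchanger known mainly from neurons (chromosome 8, 105348843 to 105369881). Its level was 4.98, 5.23, 6.35 and 5.98 CPM in KO 1, 3, 4 and 5, against 5.87, 3.48, 3.51 and 5.26 CPM in WT 2, 3, 4 and 5. The groups overlapped, with WT 2 and WT 5 inside the KO range and WT 3 and WT 4 below it. Its mean was 5.64 ± 0.64 CPM in KO and 4.53 ± 1.22 CPM in WT (SD, n = 4 each), a log2 fold change of 0.32 (SE 0.21, adjusted p = 0.452 in edgeR). The 95% interval was -0.13 to 0.77, or 0.914 to 1.71-fold. It was higher in KO in all 18 alternatives, and the lowest adjusted p, 0.176, came from limma voom. Nerve and Schwann cell markers summed to 106 to 146 CPM in KO and 72.6 to 99.8 CPM in WT, with 5 of 5 higher in KO. Of them 3 were at an unadjusted p of 0.05 and 0 passed after adjustment in edgeR (2 in DESeq2 and 2 in limma voom). Over all genes tested, 8.7% were higher at that unadjusted p, 1.83% in DESeq2 and 4.29% in limma voom. The part of nerve and Schwann cells in the level of Slc9a5 was not tested.

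Slc9a3 encodes NHE3, a main route of sodium uptake in the kidney tubule and intestine, and it was barely detected here (chromosome 13, 74121457 to 74169442). There were 7, 3, 3 and 3 reads in KO 1, 3, 4 and 5, against 3, 1, 4 and 7 reads in WT 2, 3, 4 and 5. The sums were 16 reads in KO (exact 95% Poisson interval 9.15 to 26.0) and 15 in WT (8.40 to 24.7). It did not pass the filter on low counts. The levels were 0.204 ± 0.120 CPM in KO and 0.200 ± 0.145 CPM in WT (SD, n = 4 each), with p = 1.0 in an exact two-sided permutation test over 70 arrangements, whose smallest p is 0.0286. A difference within these wide counting intervals was not detectable at this depth.

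**Figure D4:**
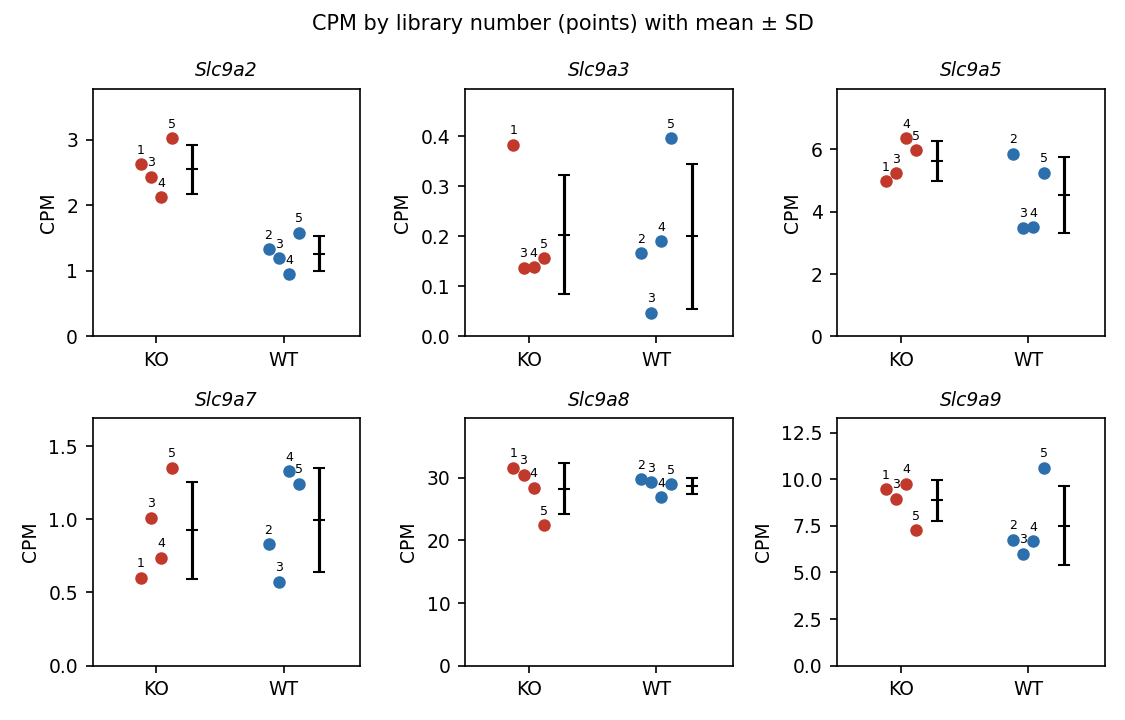
CPM of each gene in KO (red, left) and WT (blue, right), 1 point per library with its number, and the mean ± SD beside the points. Slc9a2 is the gene with no overlap, at 2.12 to 3.02 CPM in KO and 0.949 to 1.58 CPM in WT, while KO 5 is lowest for Slc9a8 and WT 5 highest for Slc9a9.

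Among the organelle exchangers, no difference between KO and WT was detected. Slc9a8 encodes NHE8, found in the Golgi and, in kidney and gut epithelium, also at the apical surface (chromosome 2, 167421712 to 167477000). Its level was 31.6, 30.5, 28.5 and 22.5 CPM in KO 1, 3, 4 and 5, against 29.8, 29.3, 26.9 and 28.9 CPM in WT 2, 3, 4 and 5. KO 5 was below every WT library, and the 3 other KO libraries lay within or just above them. With a log2 fold change of -0.02 (SE 0.12, adjusted p = 0.938 in edgeR) and a 95% interval of -0.29 to 0.24, a change beyond 1.18-fold upward or to below 0.817 of the WT level was outside the interval, the tightest of the 5 genes tested. Without KO 5 the log2 fold change was 0.07. The genes nearest to Slc9a8 in profile were Elmsan1, Kif26b, Dvl3, Tgfbrap1 and Nfkbiz, with root-mean-square differences of 0.0446 for Elmsan1 to 0.0480 for Nfkbiz among 12566 genes, against a spread of 0.142 for Slc9a8 itself. Each of them was lowest in KO 5, as Slc9a8 was, which follows in part from picking them by likeness over these same libraries.

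Slc9a9, which encodes the endosomal exchanger NHE9, lies on chromosome 9 (94669909 to 95230445), 20.4 Mb beyond Wdr72 on the same chromosome. Its level was 9.46, 8.95, 9.76 and 7.28 CPM in KO 1, 3, 4 and 5, against 6.75, 6.01, 6.69 and 10.6 CPM in WT 2, 3, 4 and 5. All KO libraries were above WT 2, 3 and 4 and below WT 5. Over the groups this gave 8.86 ± 1.11 CPM in KO and 7.52 ± 2.10 CPM in WT (SD, n = 4 each), a log2 fold change of 0.24 (SE 0.19, 95% interval -0.18 to 0.66, adjusted p = 0.541 in edgeR). Without WT 5 the log2 fold change was 0.45 (adjusted p = 0.223 in edgeR), and limma voom, which weights libraries by quality, gave 0.48 with an adjusted p of 0.0616. WT 5 also stood out for odontoblast and bone markers, at 56050 CPM against 28860 to 32240 CPM in the other WT libraries, and their part in its Slc9a9 level was not tested.

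Slc9a7 encodes NHE7 of the trans-Golgi network (chromosome X, 20105754 to 20291807, minus strand). It had 11, 22, 16 and 26 reads in KO 1, 3, 4 and 5, against 15, 12, 28 and 22 reads in WT 2, 3, 4 and 5. The groups overlapped almost fully, the lowest and the highest library of each lying close together, at 0.925 ± 0.331 CPM in KO and 0.994 ± 0.355 CPM in WT (SD, n = 4 each). The log2 fold change of -0.10 (SE 0.37, adjusted p = 0.911 in edgeR) had a 95% interval of -0.91 to 0.71, or 0.533 to 1.63-fold, and its sign turned in 5 of 18 alternatives. With the level of Xist as a covariate it was -0.79 (adjusted p = 0.951 in edgeR). Gm9083, within the body of Slc9a7 on the other strand, had 15 reads over the 8 libraries.

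**Figure D5:**
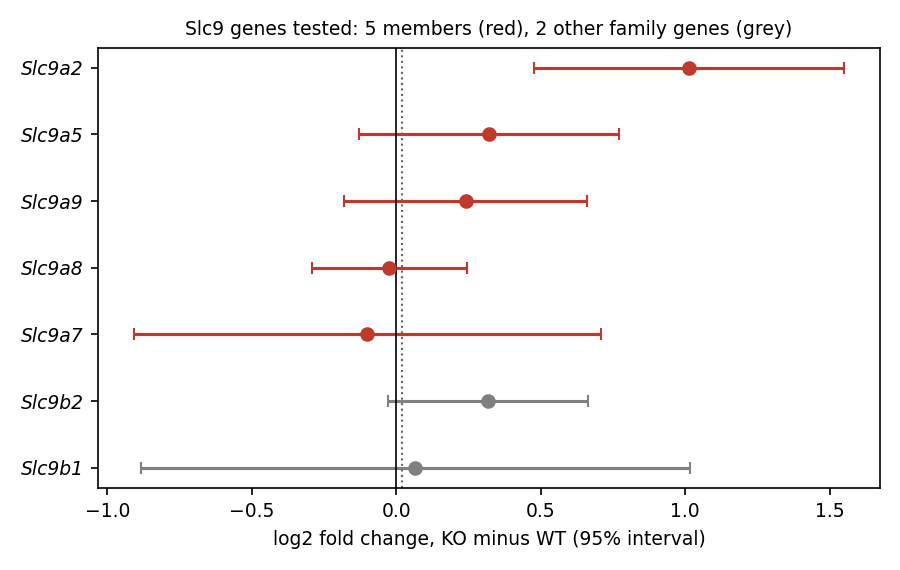
Log2 fold change (KO minus WT) with its 95% interval for the 5 tested genes described here (red) and for Slc9b2 and Slc9b1 (grey), with a solid line at 0 and a dotted line at the median of all genes tested. The interval of Slc9a2, 0.48 to 1.55, is the 1 that does not reach 0.

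Further genes of the family were measured beside them, and the 2 tested ones described here did not pass in edgeR at an unadjusted p of 0.05 or after adjustment, nor in DESeq2 or limma voom. Slc9b2, a related antiporter that is abundant in osteoclasts, had a log2 fold change of 0.32 (SE 0.16, adjusted p = 0.352 in edgeR). Slc9b1 was at 0.750 ± 0.241 CPM in KO and 0.707 ± 0.357 CPM in WT. Slc9c1 had 0 reads in all 8 libraries. The difference between the change of Slc9a2 and those of its relatives was not tested.

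Proteins that bind or regulate these exchangers were measured from a list of 17 names, of which 15 were tested. After adjustment 0 passed in edgeR and in DESeq2, and 1 of 15 in limma voom (Dpp4, lower), which called 6.57% of all genes. At an unadjusted p of 0.05 there were 4 of 15 higher and 1 of 15 lower in KO, beside 8.7% higher and 6.98% lower over all genes, and the median log2 fold change was 0.06 against 0.02 over all genes. Slc9a3r2 encodes NHERF2, a scaffold that ties Slc9a3 to the cytoskeleton. It was at 37.5 ± 8.88 CPM in KO and 27.4 ± 2.41 CPM in WT (log2 fold change 0.45, SE 0.15, adjusted p = 0.219 in edgeR), and its groups did not overlap. Its relative Slc9a3r1 (NHERF1) was nearly even, at 72.8 ± 11.2 CPM in KO and 69.5 ± 12.7 CPM in WT. Scamp2 and Scamp5, vesicle proteins that bind exchangers of the recycling pathway, differed by log2 0.35 for Scamp2 and 0.33 for Scamp5, each with an SE of 0.12. Dpp4, a surface peptidase found in complex with Slc9a3 in kidney, was at 3.66 ± 0.44 CPM in KO and 6.04 ± 1.65 CPM in WT (log2 fold change -0.73, SE 0.21, adjusted p = 0.171 in edgeR). Chp1, the cofactor that surface exchangers need to reach and work at the membrane, was at 284 ± 40.8 CPM in KO and 298 ± 34.4 CPM in WT. Pdzk1, a further scaffold, had 0 reads.

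Transporters that share the work of the Slc9 proteins were counted next, together with carbonic anhydrases, which are enzymes. In this list of acid and bicarbonate genes, 17 of 21 were tested, 8 higher and 9 lower by log2 fold change, with a median of -0.12. After adjustment 0 of 17 passed in edgeR, and 1 in DESeq2 (Car13, lower), which called 2.86% of all genes. In limma voom, which called 6.57% of all genes, 3 passed (Car13, Car2 and Slc4a3, 2 lower and 1 higher). At an unadjusted p of 0.05 in edgeR 3 were lower, Car13, Slc26a7 and Car12, and 1 was higher, Slc4a3, of 17 tested, beside 6.98% lower and 8.7% higher over all genes. Car13 and Car12 are carbonic anhydrases, which make bicarbonate and protons, and Slc26a7 is an anion exchanger of maturation ameloblasts. Car13 was at 109 ± 9.14 CPM in KO and 143 ± 16.7 CPM in WT (log2 fold change -0.39, SE 0.12). Slc26a7 was at 214 ± 66.5 CPM in KO and 325 ± 53.2 CPM in WT.

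Pumps, chloride transporters and channels that set organelle pH together with Slc9a7, Slc9a8 and Slc9a9 were split evenly in direction. Of 22 listed genes 21 were tested, 11 higher and 10 lower, with a median log2 fold change of 0.04. After adjustment 0 of 21 passed in edgeR, and 1 in DESeq2 (Tcirg1), which called 2.86% of all genes. In limma voom, which called 6.57% of all genes, 2 passed (Tcirg1 and Clcn3). At an unadjusted p of 0.05 in edgeR there were 1 higher and 2 lower of 21. These 3 in either direction are a share close to the 15.7% of all genes. The higher gene was Tcirg1, a proton pump subunit abundant in osteoclasts, at 41.0 ± 8.33 CPM in KO and 28.3 ± 2.78 CPM in WT (log2 fold change 0.53, SE 0.15). Osteoclast markers summed to 341 to 652 CPM in KO and 181 to 434 CPM in WT, with 6 of 6 higher. Of them 1 was at an unadjusted p of 0.05 in edgeR, beside 8.7% higher over all genes. After adjustment 0 passed in edgeR, DESeq2 and limma voom. The part of osteoclasts in the level of Tcirg1 was not tested. The lower genes were Clcn3, a chloride-proton exchanger of endosomes, with a log2 fold change of -0.42 (SE 0.15, adjusted p = 0.221 in edgeR), and Atp6v0a4, a proton pump subunit known from kidney, at 2.15 ± 0.44 CPM in KO and 3.37 ± 1.08 CPM in WT.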

How the data were processed

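RNA was measured by sequencing in 4 KO and 4 WT libraries. The authors deposited 1 table of counts, whole reads per Ensembl gene that were not normalised, with gene coordinates and lengths in bases. RNA was captured by polyA and fragmented, per the labels' protocols. CASAVA and mm39 appear in the submitters' processing notes, but the gene coordinates of the table are those of GRCm38. Aligner, counter and strand handling: not given in the sources used here. No batch is labelled.

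Genes were kept by filterByExpr (minimum count 10, minimum total 15), scaled by TMM and tested with edgeR 4.0.16 (R 4.3.3) by the quasi-likelihood test with robust dispersion, two-sided, and p-values were adjusted after Benjamini-Hochberg over the 16205 genes kept. The biological coefficient of variation was 17.8%. Standard errors came from the log2 fold change and its F statistic. Log2 CPM used a prior count of 2. Alternatives used DESeq2 1.42.0 and limma 3.58.1 (voom with sample weights), other scalings and filters, covariates and fewer libraries. Each test was tried on simulated data first. Depth ran from 17084475 to 21887462 reads, and intervals on read sums cover counting error only. The genes named were the 6 Slc9 genes, Wdr72, up to 4 genes of smallest p in each list, and the 5 nearest in profile to Slc9a2 and to the gene of highest TPM (Slc9a8). Other genes named were chosen with their values in view. The members and lists were chosen with earlier results of these data known. Results for some other genes of the family are not reported here.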

Additional observations from a re-analysis of the deposited data

Results flagged for a closer look

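Within groups of 4, a library far from the other 3 was found in 4 of 52 groups checked, where chance gives about 1 in 20. Slc9a3 was at 0.383 CPM in KO 1 and at 0.138 to 0.156 CPM in the other KO libraries, a gap of 7 against 3 reads. Slc9a9 was at 10.6 CPM in WT 5 and at 6.01 to 6.75 CPM in the other WT libraries. Stratum intermedium and papillary layer markers summed to 18220 CPM in KO 5, against 11140 to 11600 CPM in the other KO libraries. Odontoblast and bone markers summed to 56050 CPM in WT 5, against 28860 to 32240 CPM in the other WT libraries.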

How the results depend on the processing

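The count of genes past an adjusted p of 0.05 was 5 by edgeR and ran from 0 to 55 when 1 library was left out. Leaving out KO 3, KO 4, WT 2 or WT 3 gave 0 in edgeR, with 3139, 2622, 1744 and 1720 genes at an unadjusted p of 0.05, and leaving out WT 4 gave 16. It was 55 without KO 5 and 11 without KO 1 and KO 5. The calls were 2 higher and 3 lower in KO as reported, 1 and 3 with DESeq2 size factors, and 0 and 2 with library totals, a count of 2. It was 241 with no filter on low counts, 1 with the Xist covariate, 464 in DESeq2 and 1065 in limma voom. The replicate block gave 1 gene, and Slc9a2 then had a log2 fold change of 1.03 (adjusted p = 0.661 in edgeR). Same-numbered KO and WT libraries did not deviate together (correlations of -0.143, -0.0923 and -0.121), so the numbers were not taken as pairs. Of the Slc9 genes, 1 passed in DESeq2 and 1 in limma voom, Slc9a2 each time, and 0 when any 1 library was left out. Slc9a2, Slc9a5 and Slc9a9 were higher in KO in all 18 alternatives. With the Xist covariate Slc9a5 was at 0.615 and Slc9a7 at -0.792, against 0.321 and -0.1 as reported, and with the replicate block Slc9a5 was at 0.541. The sign of Slc9a7 turned in limma voom (0.00715) and with the replicate block (0.0091), and ran from -0.332 to 0.0691 with 1 library left out. The sign of Slc9a8 turned in limma voom (0.0184), with the Xist covariate (0.107) and without KO 1 and KO 5 (0.0342), and ran from -0.0801 to 0.0713 with 1 library left out. The cause of these turns was not tested. Without a filter Slc9a3 had a log2 fold change of 0.04 (SE 0.79, adjusted p = 0.999 in edgeR). Depth limits Slc9a3, Slc9a7 and Slc9a2, whose libraries held 1 to 58 reads each. FPKM from TMM library sizes put Slc9a8 at 3.13 and Slc9a2 at 0.273, on a lower scale than TPM.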
